A study of Mus musculus with 10 samples.

Results

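The tumour suppressor p53 is a transcription factor that is held at low levels by the ubiquitin ligase MDM2 and its relative MDM4, and that is released when DNA is damaged or cells are stressed. It then switches on genes that stop the cell cycle, repair DNA or kill the cell, and Mdm2 is itself among its targets, which closes a feedback loop. In the ovary, granulosa cells surround and feed the oocyte, and their death removes a follicle in the process called atresia. The 10 genes described here were chosen by name: Trp53, which encodes p53, its restraining partners Mdm2 and Mdm4, and the responsive genes Perp, Ccng1, Zmat3, Trp53inp1, Aen, Phlda3 and Gadd45a. All 10 have a row among the 35087 gene symbols of the deposited tables, and all 10 passed the filter for low counts that left 10945 genes for testing.

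The libraries came from granulosa cells cut by laser from ovaries of wild-type female C57B6/J mice aged 3 weeks and amplified by GEO-seq, a protocol for very small amounts of captured RNA. In the NAC group (4 libraries), mice had received intraperitoneal N-acetyl-l-cysteine, a cysteine source and antioxidant, at 150 mg/kg on 3 consecutive days. In the saline group (6 libraries), mice had received normal saline on the same schedule, and all ovaries were taken on day 4. The labels give batch 1 for every library and do not tie libraries to animals, so p-values measure only the spread between these captured samples, which may be in part technical.

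Depth was uneven between the groups. The NAC libraries held 1295412, 509945, 116461 and 1667181 estimated reads (NAC 1 to NAC 4), and the saline libraries 1340324 to 2488408. In NAC 2 and NAC 3, 84.8% and 85.1% of the tested genes had a read, against 97.7% to 99.5% in the other libraries. Values are given as CPM, read counts scaled to library size with TMM factors, and 3 reads, taken as the limit that a count of 0 allows, correspond to 24.2 CPM in NAC 3, 6.14 in NAC 2 and 1.33 to 2.16 in the other libraries. Granulosa cell markers were present in every library: of 14, 13 were detected in NAC 2 and all 14 in each of the others. Their summed level was 10900 to 25900 CPM in NAC and 15500 to 46500 in saline. Summed markers of other cells ranged widely: oocyte markers from 198 to 1440 CPM in NAC and 1.33 to 1770 in saline, and stroma and theca markers from 64.4 to 2400 and 102 to 1260. Endothelial markers lay at 48.3 to 162 CPM in NAC and 10.4 to 42.2 in saline, and immune markers at 0 to 63.5 and 0.901 to 23.6. The endothelial sums did not overlap between the groups, and their part in the values that follow was not tested. Among defining markers, Col1a1 and Dcn (stroma) had 0 reads in NAC 3, Zp3 (oocyte) had 0 in NAC 2, saline 5 and saline 6, and Ptprc (leukocytes) had 0 in NAC 2, NAC 3, saline 4 and saline 5. In bulk captures, fewer cells of a type and less RNA per cell cannot be told apart.

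p53 binds DNA as a tetramer, at pairs of a 10-base half-site whose consensus is known as the p53 half-site. RefSeq promoter windows (GRCm38.p6, from 250 bases before to 50 after a start) matched 7 of the 10 genes, and 5 of these 7 contained an exact match to that half-site consensus, which reads the same on both strands. Of all 27025 genes with such a window, 9.55% held one. Among other p53 responsive genes, from a list described further on, 31 had a window and 9 of these held one (29.0%). No window of the 7 held a full site, that is 2 half-sites at most 13 bases apart. Of all genes 20 held a full site, and of the 31 other responsive genes 1 did. The half-sites of the 5 genes that held one are shown. Each stretch has 10 bases on either side, the half-site is in capitals, and the strand of the gene is printed 5′ to 3′.
Trp53 (GRCm38 chr11:69580274-69580303, plus strand): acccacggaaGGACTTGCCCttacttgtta
Mdm2 (chr10:117710925-117710954, minus strand): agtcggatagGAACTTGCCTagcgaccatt
Ccng1 (chr11:40755452-40755481, minus strand): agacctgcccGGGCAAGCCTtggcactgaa
Aen (chr7:78895927-78895956, plus strand): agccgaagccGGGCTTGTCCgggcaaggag
Gadd45a (chr6:67037428-67037457, minus strand): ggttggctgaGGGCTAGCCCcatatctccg
The half-site begins 75 bases before the RefSeq start in Trp53, 186 before it in Mdm2, 185 in Ccng1 and 40 in Gadd45a. In Aen it lies 121 bases before one annotated start and at position 11 after another, inside an annotated untranslated stretch of an Aen exon. The Gadd45a stretch lies in an exon that GENCODE gives to that gene, and the gene E230016M11Rik overlaps it on the opposite strand. The windows of Phlda3 and of both annotated starts of Mdm4 held no exact match, which says only that these letters are not in these windows.

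The Mdm2 window is shown in full up to the RefSeq start, since Mdm2 is both the main antagonist of p53 and its target. Binding of p53 to this or any other printed half-site was not tested. Sequence outside the windows, such as introns, was not searched. The stretch covers chr10:117710759-117711008 on the minus strand, with the half-site in capitals, and no annotated gene overlaps it.
Mdm2 upstream: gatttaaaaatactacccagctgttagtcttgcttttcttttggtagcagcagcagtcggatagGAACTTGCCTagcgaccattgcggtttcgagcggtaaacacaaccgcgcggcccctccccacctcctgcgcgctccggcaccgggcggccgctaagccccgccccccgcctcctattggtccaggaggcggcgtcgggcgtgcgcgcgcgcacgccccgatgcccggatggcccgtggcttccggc

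Levels of different genes were compared per length, on the deposited TPM scale. In saline, Trp53 stood highest at 183 ± 34.3 TPM (SD, n = 6), above 92.8% of the tested genes. Phlda3 followed at 37.9 ± 14.5 TPM, Aen at 33.8 ± 7.59, Gadd45a at 32.3 ± 14.7, Mdm2 at 23.7 ± 16.8, Mdm4 at 22.0 ± 9.54 and Perp at 21.9 ± 12.7. These neighbours did not separate beyond their spread: from Phlda3 down to Perp, each gene exceeded the next in only 3 or 4 of the 6 saline libraries. Ccng1 was lower at 12.2 ± 3.02 TPM, and Zmat3 (2.62 ± 1.29) and Trp53inp1 (1.23 ± 0.665) were the lowest, with Trp53inp1 above only 1.69% of the tested genes. Trp53 exceeded Phlda3, and Ccng1 exceeded Zmat3, in 6 of 6 saline libraries. The deposited lengths behind these levels differ from the annotation. Trp53 is listed with 349.5 to 661 bases across the libraries, while its longest annotated transcript has 3275. Per kilobase of the longest annotated transcript, Trp53 (87.0 ± 16.5 CPM per kilobase, SD, n = 6) and Phlda3 (31.5 ± 12.0) kept the first and second place, and Aen moved from the third to the fifth. On that scale Ccng1 (11.5 ± 2.75) did not separate from Mdm2 (12.0 ± 1.58) and Mdm4 (12.3 ± 4.16).

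The comparison of NAC with saline sets an antioxidant against its vehicle. None of the 10 genes changed by edgeR's quasi-likelihood test (adjusted p = 0.237 to 0.997), where 0.0731% of the tested genes passed (0.0183% higher in NAC and 0.0548% lower). By unadjusted edgeR p under 0.05 there were 2, Mdm4 and Perp, both with higher means in NAC, against 16.2% of all tested genes (7.82% higher and 8.34% lower). Fitted log2 folds of NAC over saline were positive for 4 and negative for 6 of the 10, with a median of -0.13, beside 0.02 over all tested genes. The CPM of the groups overlapped for all 10, while they did not overlap for 5.38% of the tested genes (1.96% higher in NAC and 3.43% lower). A count of 0 calls has limited reach in this design: in simulated counts with the same depths and spread, 5.26% of genes changed by 1 on the log2 scale were called, and 57% of those changed by 2.

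**Figure D1:**
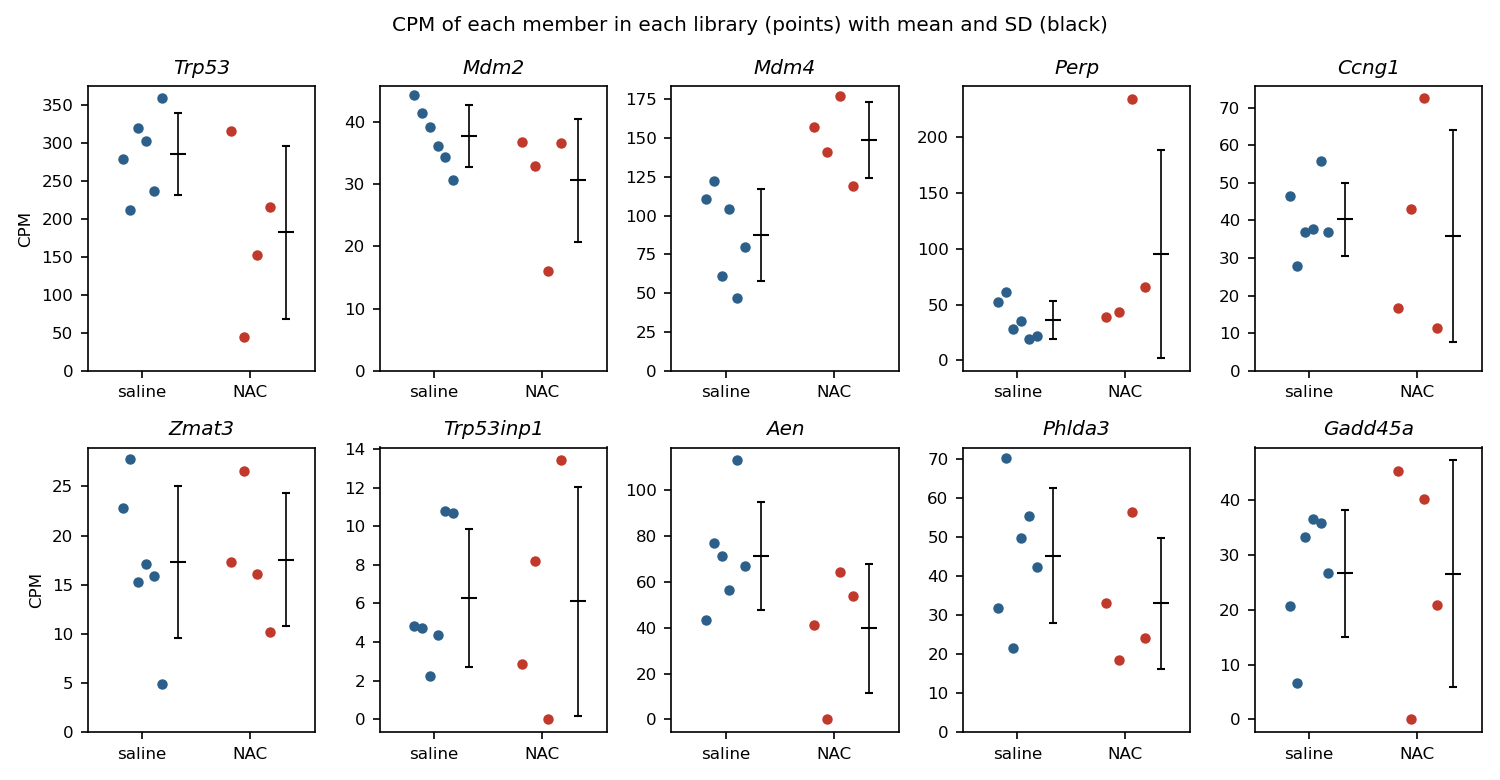
CPM of the 10 genes (vertical axes, a separate scale for each gene) in the saline (blue) and NAC (red) libraries, with mean and SD in black. The groups overlap in every panel. NAC 3 sits far above the rest in the panel of Perp (234 CPM). NAC 2 is the lowest library in the panels of Trp53 (45.0 CPM), Aen (0), Phlda3 (18.4) and Gadd45a (0).

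Trp53 (chromosome 11, 69580359 to 69591873, plus strand) encodes p53 itself, whose activity is set mostly through the stability of the protein. It had 316, 45.0, 153 and 215 CPM in NAC 1 to NAC 4, and 279, 212, 319, 303, 237 and 359 in saline 1 to saline 6. NAC 1 lay within the saline range, NAC 4 just inside its lower end, and NAC 3 and NAC 2 below it. The value in NAC 2 rests on 22 reads (28.2 to 68.2 CPM, exact 95% Poisson interval for counting error only), where the saline mean would have given 139 reads. NAC libraries averaged 182 ± 114 CPM (SD, n = 4) and saline libraries 285 ± 54.0 (SD, n = 6). The fitted log2 fold was -0.62 (SE 0.38, 95% interval -1.42 to 0.19, edgeR adjusted p = 0.437). Without NAC 2 the log2 fold was -0.29, and without NAC 2 and NAC 3 it was -0.15. It moved the other way without NAC 1, to -1.09 (edgeR adjusted p = 0.172), and without NAC 4, to -0.77. No read was assigned to the pseudogene Trp53-ps in any library.

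Mdm2 (chromosome 10, 117688875 to 117710758, minus strand) encodes the ligase that marks p53 for destruction. On the CPM scale it was the least variable of the 10 genes in saline, with 44.3, 41.4, 39.2, 36.1, 34.3 and 30.7 CPM in saline 1 to saline 6, a coefficient of variation of 13.2%. On the deposited TPM scale, where lengths differ between libraries, it had the largest SD relative to its mean of the 10 in saline. There it had 23.7 ± 16.8 TPM (SD, n = 6), from 11.4 to 49.9 TPM. The NAC libraries had 36.8, 32.8, 16.1 and 36.5 CPM. NAC 1, NAC 2 and NAC 4 were inside the saline range, and the low value of NAC 3 rests on 2 reads (1.95 to 58.2 CPM, exact 95% Poisson interval). The log2 fold was -0.21 (SE 0.34, 95% interval -0.94 to 0.52, edgeR adjusted p = 0.820).

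Mdm4 (chromosome 1, 132959484 to 133030561, minus strand) encodes a relative of MDM2 that binds the activation domain of p53 and blocks it. It had 157, 141, 177 and 119 CPM in NAC 1 to NAC 4. The saline libraries had 111, 122, 61.3, 104, 47.1 and 79.6. NAC 4 fell just under saline 2, and the other NAC libraries were above all saline libraries. NAC libraries averaged 149 ± 24.6 CPM (SD, n = 4) and saline libraries 87.4 ± 29.5 (SD, n = 6). The fitted log2 fold was 0.75 (SE 0.30, 95% interval 0.11 to 1.39). By edgeR the p was 0.0237 before adjustment and 0.237 after it. The fold stayed positive under all 25 alternatives, from 0.23 to 1.08, with adjusted p from 0.0826 to 0.759. GC content moved with the comparison. When the tested genes were split by GC content into 4 classes of like size, the lowest class, to which Mdm4 belongs (43.3% in its longest transcript), had a median log2 fold of 0.44, and the highest class -0.41. Once the fit carried offsets for GC and length, Mdm4 had a log2 fold of 0.23. With oocyte and stroma marker scores as covariates it was 0.68. The pseudogene Mdm4-ps took at most 6.05 reads in a library.

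Because Mdm2 and Mdm4 encode the paired inhibitors, their reads were also set against each other within each library, which removes the library scaling. This ratio was chosen after the values were seen and is given without a test. There were 4.27, 4.31, 11 and 3.26 Mdm4 reads per Mdm2 read in NAC 1 to NAC 4. The saline libraries had 2.50, 2.94, 1.56, 2.86, 1.37 and 2.59. The groups did not overlap, also without NAC 3, whose ratio rests on 2 Mdm2 reads. Of the other tested genes, counted in the same way per Mdm2 read, 3.68% were higher in all NAC libraries than in all saline libraries and 0.969% were lower. A ratio of reads does not remove the trend with GC content. Mdm4 lies in the class of lowest GC content (median log2 fold 0.44) and Mdm2 in the next (0.15). The part of GC content in the ratio was not tested. Mdm4 reads per Trp53 read were 0.498, 3.14, 1.16 and 0.555 in NAC and 0.192 to 0.574 in saline, so the groups overlapped through NAC 1, NAC 4 and saline 2. Mdm2 reads per Trp53 read were 0.116, 0.727, 0.105 and 0.170 in NAC and 0.0854 to 0.195 in saline, with NAC 2 alone outside the saline range.

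**Figure D2:**
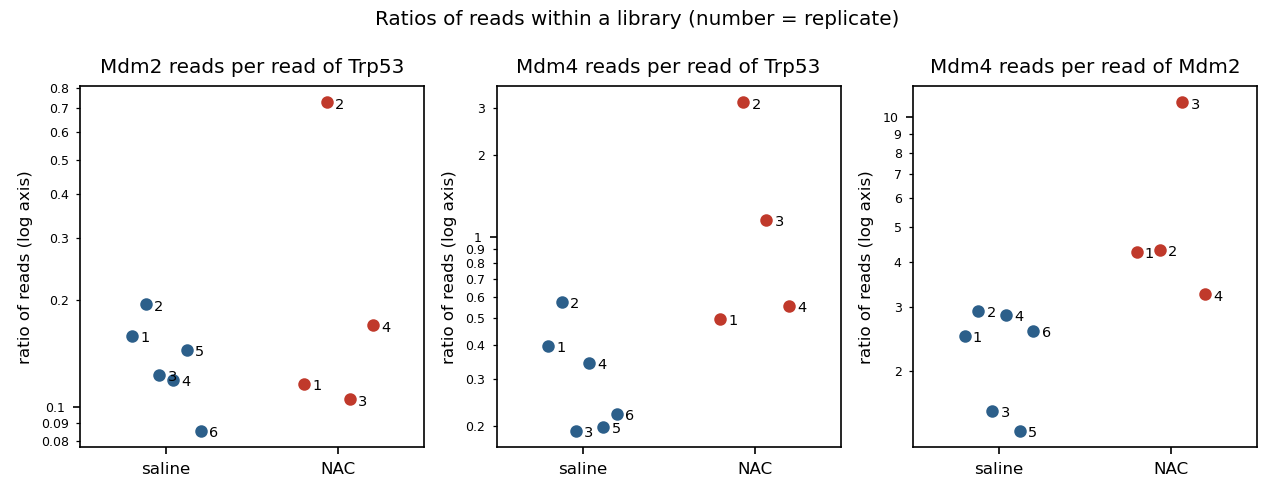
Ratios of reads within each library (log axes, numbers give the replicate) for Mdm2 per Trp53, Mdm4 per Trp53 and Mdm4 per Mdm2 in saline (blue) and NAC (red). The Mdm4 per Mdm2 ratio lies between 1.37 and 2.94 in saline and between 3.26 and 11 in NAC, and the other ratios overlap.

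Perp (chromosome 10, 18845020 to 18857073, plus strand) encodes a membrane protein of desmosomes that p53 can induce in dying cells. It had 39.0, 43.0, 234 and 65.5 CPM in NAC 1 to NAC 4. In saline it had 51.9, 61.7, 27.9, 35.2, 19.0 and 21.8 CPM. NAC 1 and NAC 2 lay inside the saline range, NAC 4 was slightly above it, and NAC 3 stood far above every other library with 29 reads (156 to 335 CPM, exact 95% Poisson interval), where the saline mean would have given 4.50. The log2 fold was 1.23 (SE 0.51, 95% interval 0.14 to 2.31), with an unadjusted edgeR p of 0.0288 and an adjusted p of 0.251. Without NAC 3 the log2 fold was 0.40 (edgeR adjusted p = 0.687).

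Ccng1, Gadd45a and Phlda3 are induced by p53 to slow growth or in feedback, and none of them passed the test. Ccng1 (chromosome 11, 40748552 to 40755311, minus strand) encodes cyclin G1, which recruits a phosphatase that acts on MDM2. It had 16.6, 43.0, 72.5 and 11.3 CPM in NAC 1 to NAC 4 and 46.4, 27.8, 37.0, 37.6, 55.9 and 36.9 in saline. NAC 1 and NAC 4, the deeper NAC libraries, were below all saline libraries, NAC 2 was among them, and NAC 3 was above with 9 reads. The log2 fold was -0.43 (SE 0.49, edgeR adjusted p = 0.683). Without NAC 2 and NAC 3 it was -1.58 (edgeR adjusted p = 0.0985), and it was negative under all alternatives, from -1.58 to -0.01.

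Gadd45a (chromosome 6, 67035096 to 67037457, minus strand) encodes a stress sensor that acts on the cell cycle and DNA repair. It had 45.4, 0, 40.3 and 20.9 CPM in NAC and 20.8, 6.59, 33.4, 36.6, 35.9 and 26.7 in saline. NAC 2 had no read where the saline mean would have given 13, and NAC 1 and NAC 3 were above all saline libraries. NAC libraries averaged 26.7 ± 20.7 CPM (SD, n = 4) and saline libraries 26.6 ± 11.5 (SD, n = 6). The gene E230016M11Rik, on the opposite strand, has no annotated exon in the printed Gadd45a stretch, and overlap of exons elsewhere was not examined. Whether the counting used strand is not given in the sources used here. Any part of E230016M11Rik in the Gadd45a reads was not tested. The log2 fold of -0.05 (SE 0.67, edgeR adjusted p = 0.982) turned positive under 7 of 24 alternatives.

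Phlda3 (chromosome 1, 135766119 to 135769136, plus strand) encodes a small protein that keeps AKT from the membrane. It had 33.2, 18.4, 56.4 and 24.2 CPM in NAC and 31.8, 70.2, 21.6, 49.8, 55.3 and 42.2 in saline. NAC 2 alone lay below the saline range. Its log2 fold was -0.58 (SE 0.43, edgeR adjusted p = 0.519). Phlda3 lies in the class of highest GC content (62.6%), and with GC and length offsets its log2 fold was 0.14.

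Aen, Zmat3 and Trp53inp1 are induced by p53 on the way to cell death or RNA processing, and none of them passed the test. Aen (chromosome 7, 78895854 to 78911209, plus strand) encodes an exonuclease that degrades DNA in apoptosis. It had 41.1, 0, 64.4 and 53.7 CPM in NAC and 43.6, 76.8, 71.2, 56.6, 113 and 67.1 in saline. NAC 1 fell just below the lowest saline library, and NAC 2 had no read where the saline mean would have given 34.9. NAC libraries averaged 39.8 ± 28.2 CPM (SD, n = 4) and saline libraries 71.4 ± 23.6 (SD, n = 6). The log2 fold of -0.91 was the most negative of the 10 genes (SE 0.58, 95% interval -2.13 to 0.31, edgeR adjusted p = 0.449). Without NAC 2 it was -0.51, and without NAC 4 it was -1.285. On the deposited TPM scale the Aen mean was instead higher in NAC, at 66.9 ± 75.4 TPM (SD, n = 4) against 33.8 ± 7.59 (SD, n = 6). There NAC 3 had 175.3 TPM from 8 reads and NAC 2 had 0. Deposited lengths of Aen ran from 103.4 bases in NAC 3 to 1765 in NAC 2.

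Zmat3 (chromosome 3, 32334792 to 32366014, minus strand) encodes a zinc finger protein that binds RNA and shapes splicing. It had 17.3, 26.6, 16.1 and 10.2 CPM in NAC and 4.89 to 27.8 in saline, so every NAC library lay inside the saline range. The log2 fold was 0.00 (SE 0.57, 95% interval -1.20 to 1.21, edgeR adjusted p = 0.997), and its sign turned under 13 of 24 alternatives. Trp53inp1 (chromosome 4, 11156431 to 11174379, plus strand) encodes a nuclear protein that promotes p53-dependent death and autophagy. It was sparse, with 33 reads in all of NAC and 76 in all of saline. CPM were 2.89, 8.19, 0 and 13.4 in NAC and 2.25 to 10.8 in saline, and the read missing in NAC 3 was not detectable at its depth, since the saline mean would have given 0.779 reads. The log2 fold was 0.19 (SE 0.78, 95% interval -1.47 to 1.84, edgeR adjusted p = 0.926).

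**Figure D3:**
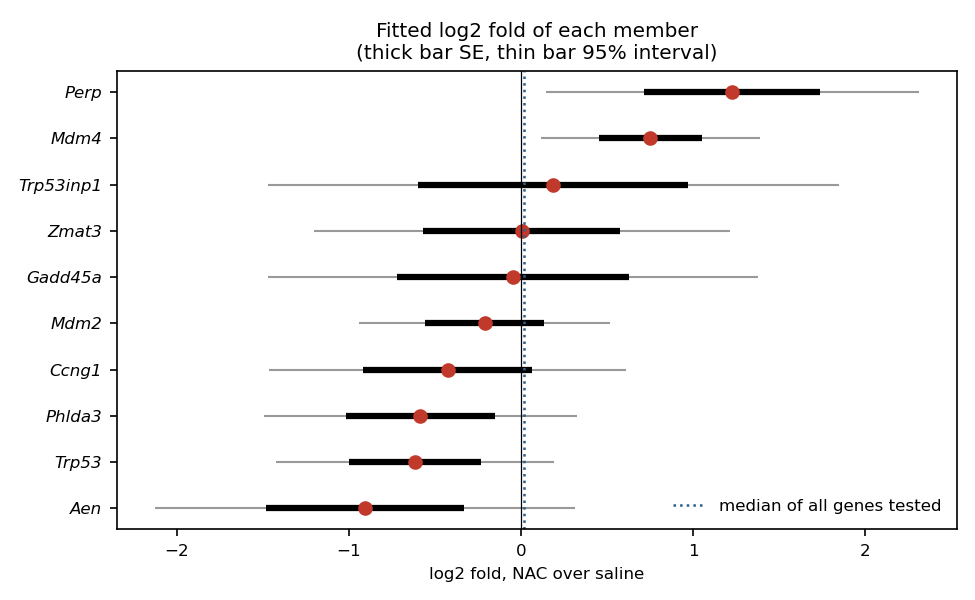
Fitted log2 fold of NAC over saline for each of the 10 genes (points) with SE (thick bars) and 95% interval (thin bars), and the median of all tested genes (dotted line, 0.02). The 95% intervals, before any adjustment for multiple tests, exclude 0 for Perp and Mdm4 alone.

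The spread between libraries differed among the genes. In saline, coefficients of variation of CPM ran from 13.2% for Mdm2 and 19.0% for Trp53 to 56.9% for Trp53inp1. In NAC they were higher for 8 of the 10 genes, reaching 97.6% for Perp and 62.3% for Trp53, and lower for Mdm4 (16.5%, against 33.8% in saline) and Zmat3 (38.7%, against 44.8%). NAC 2 held the lowest value of the 10 libraries for 4 genes (Trp53, Aen, Phlda3 and Gadd45a). NAC 3, the shallowest library, held the lowest for 2 and the highest for 3.

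Other genes of the pathway were described from lists. Of 36 other p53 responsive genes 35 had a row and 30 were tested. None changed by edgeR's test (smallest adjusted p = 0.193), 11 folds were positive and 19 negative, and the median log2 fold was -0.27. By unadjusted edgeR p under 0.05, 5 were lower in NAC and 0 higher, beside 8.34% and 7.82% of all tested genes. In 1 of the 30 the groups did not overlap, with lower values in NAC, beside 3.43% of all tested genes. The 4 with the smallest p were all lower on average in NAC. Triap1, which encodes a small inhibitor of apoptosis, had 16.6, 0, 0 and 13.4 CPM in NAC 1 to NAC 4. It had 18 to 57.4 CPM in saline, with no overlap (log2 fold -1.80, SE 0.64, edgeR adjusted p = 0.193). The saline mean would have given 16.9 Triap1 reads in NAC 2 and 4.3 in NAC 3. In NAC 3, 3 reads correspond to 24.2 CPM, more than the lowest saline value, so its 0 does not place it below saline. NAC 1 (23 reads) and saline 1 (26 reads) lay close together. Trp53i13 had 25.2, 0, 8.05 and 16.6 CPM in NAC and 23.5 to 55.4 in saline, a log2 fold of -1.51. Fdxr, which encodes the ferredoxin reductase of mitochondrial steroid synthesis, had 120, 8.19, 24.2 and 114 CPM in NAC and 89.3 to 241 in saline, a log2 fold of -1.21. Bax, which encodes a pore-forming death protein, had 201, 45.0, 113 and 120 CPM in NAC and 166 to 245 in saline, a log2 fold of -0.74. With GC and length offsets the log2 fold of Bax was -0.20, that of Fdxr -0.77 and that of Triap1 -1.67. Without NAC 2 they were -0.46, -0.82 and -1.42. Without NAC 1 they were -1.20, -1.61 and -2.295.

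Cdkn1a, the p21 cell cycle inhibitor and the most widely used readout of p53, was named after its values were seen. It had 19 reads in NAC 1 (13.7 CPM) and 0 in NAC 2, NAC 3 and NAC 4. In saline it had 17 to 41 reads, or 7.66 to 19.0 CPM, in every library. At the saline mean, 28.4 reads would have been present in NAC 4, 7.45 in NAC 2 and 1.89 in NAC 3, so a lower level was not detectable at the depth of NAC 3. The log2 fold was -1.75 (SE 0.95, 95% interval -3.77 to 0.27, edgeR adjusted p = 0.373). Without NAC 1, the only NAC library with a Cdkn1a read, the log2 fold was -7.63 and the gene passed (edgeR adjusted p = 0.0476). With no NAC read left, this pass follows from the library dropped and adds no evidence of a lower level. The edgeR adjusted p without NAC 1 was the lowest over its alternatives, and the highest adjusted p was 0.681. The 5 genes of the list that had a row and did not pass the filter were Bbc3 (PUMA), with 13 reads in all of NAC and 45 in all of saline, Eda2r with 18 and 33, Plk3 with 16 and 21, Pmaip1 (NOXA) with 3 and 0, and Fas with 2 and 0.

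Regulators and cofactors of p53 numbered 28, of which 26 were tested. None changed by edgeR's test at an adjusted p under 0.05, 14 folds were positive and 12 negative, and the median log2 fold was 0.23. By unadjusted edgeR p under 0.05, 3 of the 26 were higher and 1 lower, beside 7.82% and 8.34% of all tested genes. The groups did not overlap for 2 of the 26, 1 higher in NAC (Trp53bp1) and 1 lower, beside 1.96% and 3.43% of all tested genes.

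Trp53bp1, which encodes the damage-site protein 53BP1, had 102, 143, 129 and 113 CPM in NAC and 40.0 to 95.2 in saline, all NAC libraries being above all saline libraries (log2 fold 0.82, SE 0.30, edgeR adjusted p = 0.205). Atr, a kinase gene of the replication stress response, had 59.2, 197, 40.3 and 75.2 CPM in NAC and 15.9 to 60.3 in saline (log2 fold 1.28). Crebbp, an acetyltransferase gene, had 167, 285, 145 and 129 CPM in NAC and 87.1 to 158 in saline (log2 fold 0.69). With GC and length offsets the log2 fold of Atr was 0.47, that of Trp53bp1 0.41 and that of Crebbp 0.63. Without NAC 2 the log2 fold of Atr was 0.64 and that of Crebbp 0.37. The relatives of Trp53 were sparse: Trp63 had 11 reads in all of NAC and 15 in all of saline, and Trp73 18 and 6, found in NAC 4 and saline 4 alone. Oocyte marker sums peaked in the same libraries, at 1440 CPM in NAC 4 and 1770 in saline 4, and the part of oocyte RNA in these values was not tested.

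**Figure D4:**
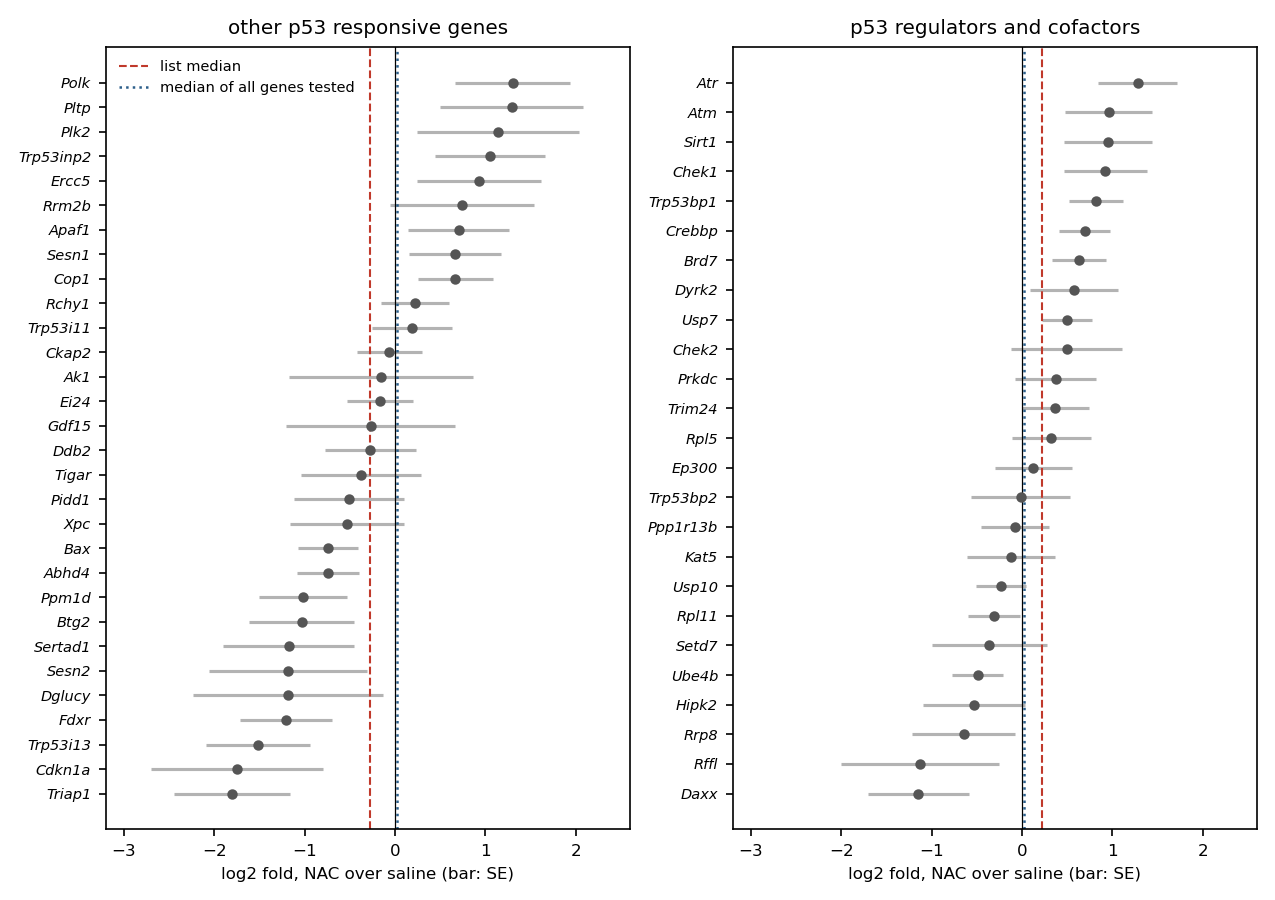
Log2 fold of NAC over saline (points, bars are SE) for the 30 tested other p53 responsive genes and 25 of the 26 tested p53 regulators and cofactors, with the list medians (dashed, -0.27 and 0.23) and the median of all tested genes (dotted, 0.02). Both lists spread to either side of 0, from -1.80 (Triap1) to 1.30 and, among the regulators drawn, up to 1.28 (Atr).

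**Figure D5:**
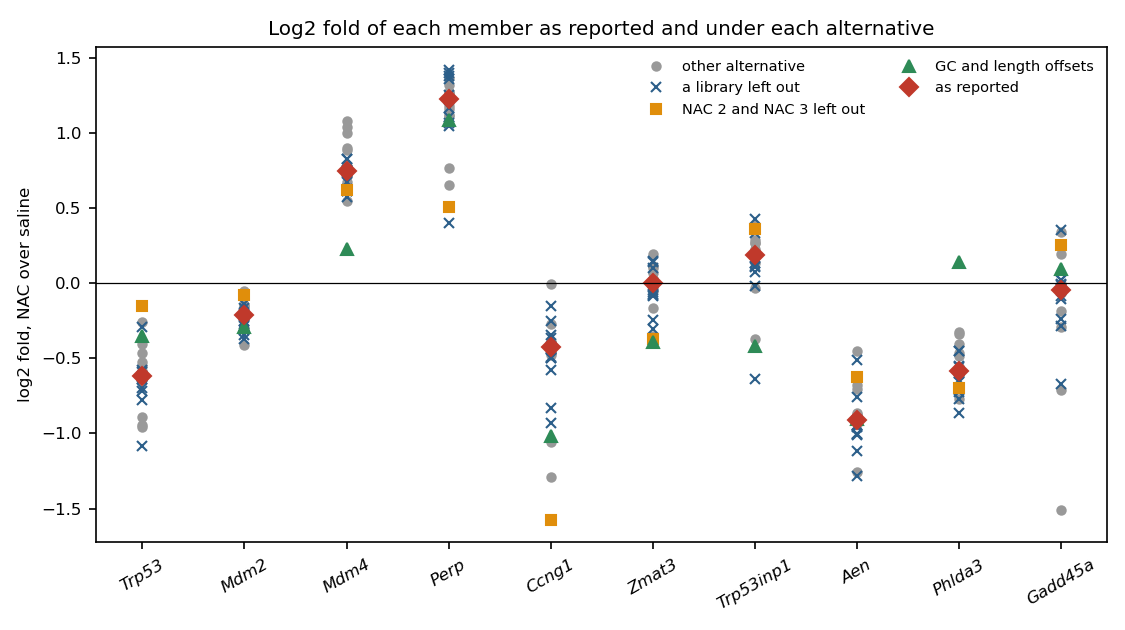
Log2 fold of each of the 10 genes as reported (diamond) and under each alternative analysis (other symbols), on 1 linear axis. Mdm4 and Perp stay above 0 and Trp53, Mdm2, Ccng1 and Aen below 0 under every alternative run, while the signs of Phlda3, Gadd45a, Trp53inp1 and Zmat3 turn in 1, 7, 5 and 13 cases.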

How the data were processed

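Per the submitters' processing notes the tools and build were Salmon and GRCm38, with versions and annotation not given in the sources used here. The gene table deposited for each library holds the authors' estimated counts, TPM and lengths, per the file headers. The 1548 rows named by a transcript (0.496% to 0.638% of a library's reads) were left out. Estimated counts were rounded and tested with edgeR 4.0.16 in R 4.3.3 (quasi-likelihood, robust, TMM, default filter), with p-values adjusted over all 10945 tested genes by Benjamini-Hochberg and calls at 0.05. The deposited TPM served to compare levels between genes, and deposited lengths, in bases, vary between libraries. Salmon splits reads shared by similar sequences.

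The genes and lists were chosen with earlier results of these data known. By rule, the genes named besides the 10 were the 4 tested genes with the smallest p of each of the lists of responsive genes and of regulators, and Trp63 and Trp73; 1 of the regulators is not reported here. Cdkn1a, Rrp8 and the untested responsive genes were named outside this rule, after their values were seen. Intervals and floors cover counting error only, since amplified reads that carry no molecular identifier may be copies of 1 molecule. Alternatives were scaling by RLE or by library size alone, DESeq2 1.42.0, limma 3.58.1 (voom with quality weights, log2(TPM + 1), log2(TPM + 0.1)), other filters, non-robust estimation, covariates (genes detected, oocyte and stroma scores), thinning, GC and length offsets, libraries left out, and a replicate block. The test was checked on simulated data with 200 changed genes.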

Additional observations from a re-analysis of the deposited data

Results flagged for a closer look

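A library stood apart from the others of its group by Dixon's criterion in 2 of the 38 groups examined, where chance gives about 1 in 20. Perp had 234 CPM in NAC 3, against 65.5 CPM in the next highest NAC library and 39.0 in the lowest. Cdkn1a had 13.7 CPM in NAC 1 and 0 in the other NAC libraries. With the others tied at 0, any read in NAC 1 meets the criterion, and Cdkn1a was named after its values were seen. Its flag can therefore not be set against the 1 in 20.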

How the results depend on the processing

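None of the 10 genes was called under any of the 25 alternatives, each over the members it could test (238 values in all, 26 with the sign turned). The count of 8 genes called over all genes was 433 with DESeq2, 481 with limma-voom, 226 with no filter, 42 with genes detected as a covariate, 1 with oocyte and stroma scores, 80 with thinning, 16 with GC and length offsets, 2 without NAC 2 and NAC 3, and 1 to 58 with each library left out (58 without NAC 1, 39 without NAC 2 and 22 without saline 1). With the replicate block it was 1. Deviations of same-numbered libraries had correlations of -0.01, 0.01, 0.01 and 0.20. NAC 4 correlated best with saline 4, but NAC 1, NAC 2 and NAC 3 with a saline library of another number. The numbers were therefore not taken as pairs in the main fit.

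The median log2 fold of the 10 genes was 0.37 with thinning, which left 2 of them, and -0.41 with the replicate block, which left 9. Library size alone moved the median of all genes from 0.02 to 0.19. The other responsive genes had a median of -0.84 on log2(TPM + 0.1) and -0.64 with thinning (4 genes). With each library left out their median was -0.64 to -0.10. Over the libraries left out 0 to 1 of them was called, 1 without NAC 1 (Cdkn1a, with no NAC read left). The regulators had a median of 0.37 with library size alone, 0.42 on log2(TPM + 1), 0.44 on log2(TPM + 0.1), -0.065 with both scores, 0.058 without NAC 2 and NAC 3, -0.063 with the replicate block and -0.15 to 0.23 with each library left out. Among the libraries left out, the lowest medians of both lists were without NAC 1, and the cause was not tested. Among regulators, 1 was called with DESeq2, 2 with limma-voom (among them Rrp8, named after its values were seen) and 1 without a filter.

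Signs turned as follows. Gadd45a: 0.19 with library size alone, 0.34 with both scores, 0.094 with the offsets, 0.26 without NAC 2 and NAC 3, and -0.67 to 0.35 with each library left out. Phlda3: 0.14 with the offsets. Trp53inp1: -0.033 on log2(TPM + 0.1), -0.37 with both scores, -0.42 with the offsets and -0.64 to 0.43 with each library left out. Zmat3: -0.025 with no filter, -0.17 with genes detected, -0.049 with both scores, -0.39 with the offsets, -0.37 without NAC 2 and NAC 3, -0.35 with the replicate block and -0.30 to 0.147 with each library left out.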
